A study of Rattus with 12 samples.

Results

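The comparison described here is that of complex cultures exposed to a high dose of fentanyl with untreated cultures, and its members are 8 of the 12 cultures of the study. The members were taken by their dose label: 4 high dose cultures (C, I, O and R) and 4 untreated cultures (A, G, M and P), with the letters as the labels give them. All cultures were primary co-cultures from the cortex of Sprague Dawley rats, in which purchased neurons, astrocytes and oligodendrocyte precursor cells (OPCs) were grown together, so all groups share the same strain and the same seeded cell types, and no gene was altered. The high dose cultures received 10 μM fentanyl in neuron medium for 4 days, with a partial renewal of the dosed medium during that time, and the untreated cultures received neuron medium alone over the same days. The other 4 cultures of the study (B, H, N and Q) received a low dose of 0.01 μM and entered all 3 fits, where they bear on the spread between cultures, the estimated factor and the terms for the letter sets. Poly(A) RNA was sequenced in bulk and counted per gene. The study calls the 4 cultures per dose behind its RNA-based cell type estimates biological replicates. Neither the labels nor the methods say that the cultures of a group came from separate cell preparations. All p-values therefore measure the spread between these cultures, which may be technical.

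Fentanyl is a synthetic agonist of the mu opioid receptor, which couples to inhibitory G proteins and reduces both the excitability of neurons and the release of transmitter. Neuronal activity controls the transcription of a set of genes, among them neuropeptides and secreted factors such as Bdnf and Vgf, with a delay of minutes to hours. Astrocytes and microglia respond to inflammatory signals through the transcription factor NF-kB by making complement proteins, chemokines and acute phase proteins, a state known in astrocytes as reactive.

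Between 12059872 and 17023909 reads were counted in each untreated culture, and between 15102785 and 24813893 in each high dose culture. Of the 17337 genes listed, 12271 had enough counts to be tested. Levels are given as CPM, the counts relative to the library total after TMM scaling, and a count of 3, taken as the floor of detection, was worth 0.124 to 0.249 CPM in these 8 cultures. This floor covers counting error only. Of these 8 cultures, untreated G stood apart before any comparison, with few neuron transcripts and many fibroblast transcripts, and it is described first. Low dose culture N, which entered all 3 fits, also had many reads of some fibroblast markers. It had 3565 reads of Col3a1 and 17119 of Fn1, against 5866 and 16142 in G, but 9 of Dcn, against 1053 in G. Consecutive letters span the 3 doses, and the cultures were read in sets of such letters, named ABC, GHI, MNO and PQR after their cultures, with the untreated culture first and the high dose culture last. The labels do not call these a pairing or a batch. Results are therefore given in 3 fits and within each letter set. The first fit holds all 12 cultures with 1 estimated factor of unwanted variation (the 12-culture fit), the second leaves out G, and the third leaves out G and takes the letter sets as a block in place of the factor (the letter-set fit).

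The seeded cell types were all present by their markers. The neuron marker score, the average log2(CPM + 1) of 14 genes such as Snap25 and Map2, was 7.76 ± 0.13 (SD, n = 4) in high dose and 6.85 ± 1.62 (SD, n = 4) in untreated cultures. In single cultures it was 7.83 in A, 4.44 in G, 7.73 in M and 7.41 in P, against 7.77 in C, 7.92 in I, 7.75 in O and 7.61 in R. The other 7 cultures lay between 7.41 and 7.92, and G lay far below them. The difference of 0.91 had an exact two-sided permutation p of 0.257, where 0.0286 is the smallest p that 4 against 4 cultures allow, and without G the difference was 0.11 (exact permutation p = 0.514). Slc17a7, the vesicular glutamate transporter of cortical excitatory neurons, showed the same in a single gene, with 15.5 CPM in G against 694 to 1272 CPM in the other untreated and 860.2 to 1155 CPM in the high dose cultures.

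The score of fibroblast and mural cell markers was 6.87 in G, against 3.66 to 5.36 in the other 3 untreated and 3.63 to 5.33 in the high dose cultures. Microglia were not among the seeded cell types, but their markers were detected, and the score of 12 such genes differed more between letter sets than between doses. It was 4.27 in A, 5.83 in G, 5.03 in M and 2.27 in P, and 4.84 in C, 5.43 in I, 5.59 in O and 2.35 in R. The high dose culture thus lay above the untreated one in ABC (0.57), MNO (0.56) and PQR (0.08), and below it in GHI (-0.40). Astrocyte markers were lower at the high dose in 3 of 4 letter sets, with differences of 0.33, -0.98, -0.90 and -0.30 in the order of the letters (pooled difference -0.46, exact permutation p = 0.229). Adjusted over the 9 marker lists, no score passed the test (all adjusted permutation p of 0.857 or more). In bulk samples, fewer cells of a type and less RNA per cell cannot be told apart. In the plot of marker scores, the steps from untreated to high dose outside set GHI ran from -0.13 to 0.19 in the neuron panels. Other panels held larger steps. These reached 0.58 for OPCs and 0.57 for microglia in ABC, and -0.90 for astrocytes and -0.53 for oligodendrocytes in MNO. In PQR the step was 0.53 for fibroblast and mural cells.

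**Figure D1:**
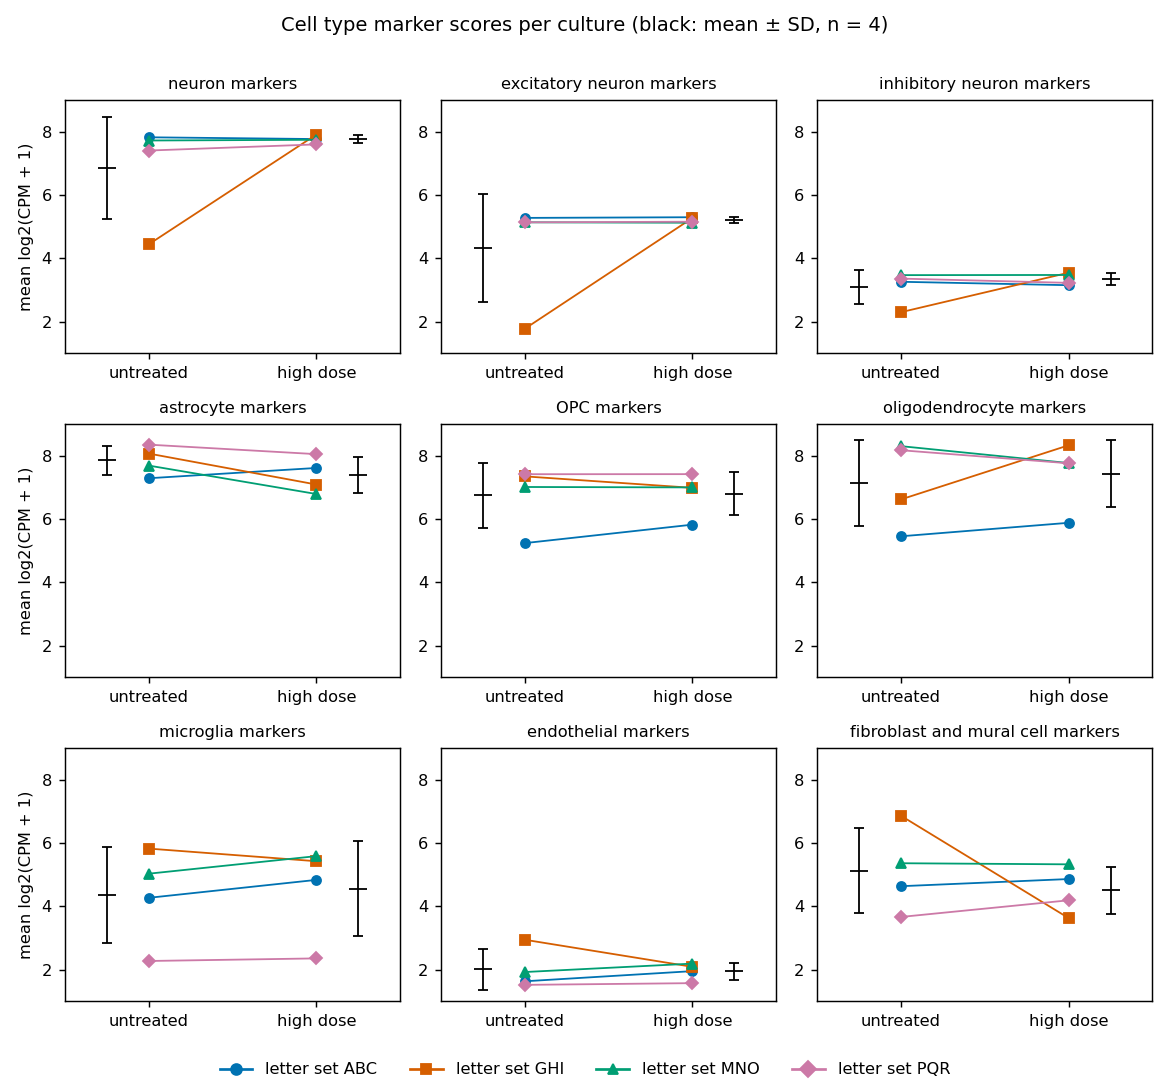
Marker scores of 9 cell types, in units of log2(CPM + 1) averaged over the genes of a list (vertical axis), in untreated and high dose cultures. Each line joins the 2 cultures of a letter set, and black bars give the mean ± SD (n = 4). Untreated culture G has the lowest neuron score, at 4.44, and the highest fibroblast and mural cell score, at 6.87.

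A gene was called a DEG where its adjusted p was under 0.05 and its log2 fold change beyond 0.5. In the 12-culture fit, 0 of 12271 genes (0%) met both thresholds in high dose vs. untreated cultures (edgeR quasi-likelihood test). At an unadjusted p under 0.05, 113 genes (0.921%) were higher and 33 (0.269%) were lower. Without culture G, again 0 genes were DEGs, with 185 higher and 104 lower at an unadjusted p under 0.05, and the smallest adjusted p was 0.0984, for complement factor B (Cfb). The dispersion between cultures was 0.106 in the 12-culture fit and 0.0606 without G. It was 0.0126 once the letter sets entered as a block. In this letter-set fit, 13 of 12337 genes (0.105%) were upregulated and 2 (0.0162%) were downregulated at both thresholds. Without adjustment, 710 genes (5.76%) lay higher and 453 (3.67%) lower at a p under 0.05.

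The upregulated genes described here were Cfb, C3, C1s and Serping1 of the complement system, the reactive glia genes Chi3l1, Steap4 and Vcam1, the NF-kB inhibitor Nfkbia, and the myeloid genes Irg1, Lyz2 and Lyc2. The 2 downregulated genes were the secreted peptides Ostn and Adcyap1. Each of the 15 had 1 sign of the difference in MNO and PQR, and 13 had it in ABC too, where Ostn and Irg1 had fewer reads than the floor of 3. These sets carry the fitted value, so this is a description of the calls and not further evidence. In GHI, only 5 of the 15 kept that direction. The 15 calls depended on which cultures entered. With the whole set GHI left out, 2 of the 15 remained DEGs (Vcam1 and Ostn), and Irg1 was not tested. The residual degrees of freedom then went from 5 to 4, and the log2 fold changes of C3, Cfb and C1s were 2.29, 1.96 and 1.06, against 2.37, 2.06 and 1.10 with the set. Of the 15, 5 remained without ABC and 11 without MNO, whereas none did without PQR, where the smallest adjusted p over all genes was 0.0946. Each of these 3 fits had 3 residual degrees of freedom, and all 15 genes kept their direction in each. Without PQR the log2 fold change was -3.0 for Ostn, 1.32 for Vcam1, 2.08 for C3 and 2.02 for Cfb. With 4 factors of unwanted variation on all 12 cultures in place of 1, 13 of the 15 were DEGs among 39 genes in all, and Lyz2 and Lyc2 were not. The plot of called genes shows the 4 within-set differences of each described gene.

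**Figure D2:**
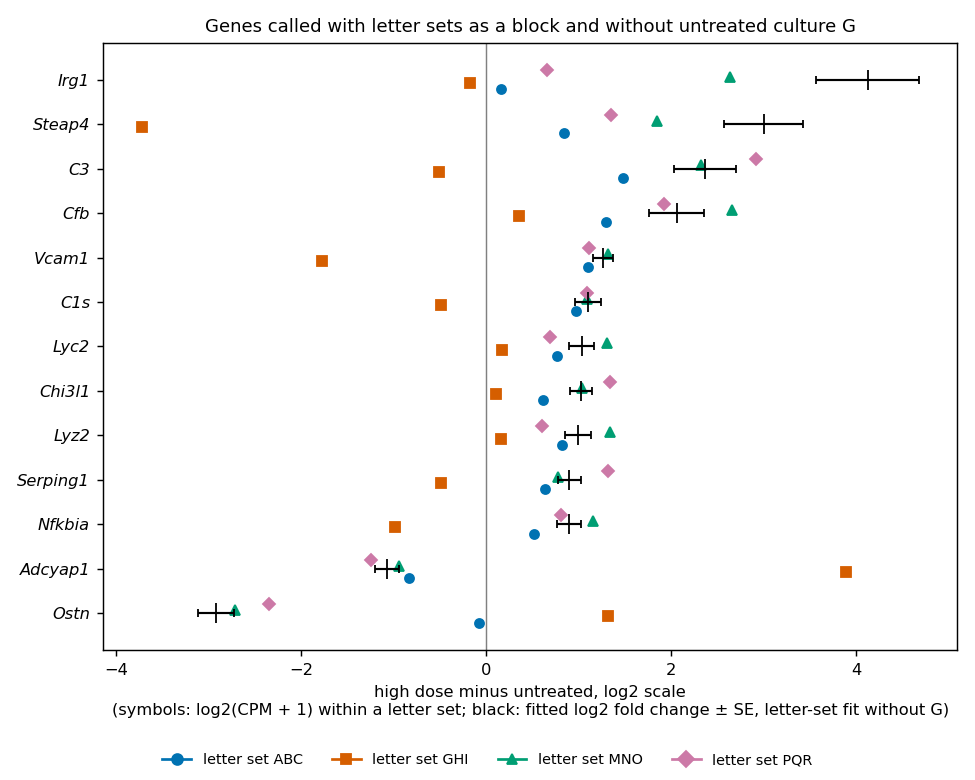
The 13 described genes among the 15 called in the letter-set fit, with the difference between the high dose and the untreated culture of each letter set in log2(CPM + 1) (coloured symbols) and the fitted log2 fold change ± SE without culture G (black). The symbols of MNO and PQR lie on 1 side of 0 for every gene, the ABC symbols of Ostn and Irg1 rest on at most 2 reads a culture, and those of GHI lie on the other side for 9 of the 13.

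Of the 21 complement genes tested, 12 lay higher at the high dose in each of ABC, MNO and PQR, against 15.1% of all genes. The mean difference of the list on the log2(CPM + 1) scale was 0.57, 0.68 and 0.36 in these sets and -0.24 in GHI. This system tags cells and synapses through a cascade in which C1q, C1r and C1s start the classical pathway and C3 is the shared central component. C3 was measured at 86.7 CPM in A, 702 in G, 130.1 in M and 40.7 in P, against 244 in C, 493 in I, 656 in O and 314 in R. The 4 high dose cultures lay above A, M and P, while untreated G lay above all of them. C3 had the smallest unadjusted p of the 12-culture fit, with a log2 fold change of 2.10 ± 0.38 (SE) that did not pass the adjustment (adjusted p = 1, edgeR). In the letter-set fit it was upregulated by a log2 fold change of 2.37 ± 0.33 (adjusted p = 0.0443, edgeR).

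Cfb, the serine protease of the alternative C3 convertase, was one of the few called genes that were also higher in GHI. Its level was 73.2 CPM in A, 60.1 in G, 14.9 in M and 2.49 in P, and 182 in C, 77.3 in I, 99.7 in O and 12.3 in R. The groups overlapped, because the level in P and R was far below that in the other sets, but each high dose culture exceeded the untreated culture of its own set. The log2 fold change was 1.48 ± 1.10 in the 12-culture fit (adjusted p = 1, edgeR) and 2.06 ± 0.30 in the letter-set fit (adjusted p = 0.0472). With 1 culture left out in turn, the first of these ranged from 0.76 without untreated P to 3.18 without untreated A.

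C1s, a protease of the C1 complex, was at 90.5, 184, 70.5 and 60.0 CPM in A, G, M and P and at 178, 131, 151 and 129 CPM in C, I, O and R. Its log2 fold change in the letter-set fit was 1.10 ± 0.14 (adjusted p = 0.0377, edgeR), and G was again the untreated culture that overlapped with the high dose. Serping1, the inhibitor of C1r and C1s, was upregulated in the same fit by 0.90 ± 0.12 on the log2 scale (adjusted p = 0.0443), with 398, 530.3, 258 and 201 CPM in the untreated and 619.9, 377, 443 and 502 CPM in the high dose cultures. For Serping1, culture I lay below A and G.

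At an unadjusted p under 0.05 in the letter-set fit, 12 of the 21 lay higher, against 5.76% of all genes, and 1 lay lower (Cd59, which protects cells from the membrane attack complex, log2 fold change -0.14), against 3.67%. In the 12-culture fit, 3 lay higher, against 0.921% of all genes, and 0 lower, against 0.269%. The median log2 fold change of the list was 0.66 in the 12-culture fit, 0.50 without G and 0.55 in the letter-set fit, against 0.00, 0.01 and 0.00 over all genes tested. The 3 genes of C1q (C1qa, C1qb and C1qc), which microglia express, had log2 fold changes of 0.53 to 0.56 in the letter-set fit without passing the adjustment. In all, 4 of the 21 genes (Cfb, Cfd, C3ar1 and C5ar1) were higher in all 4 sets, against 5.22% of all genes.

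**Figure D3:**
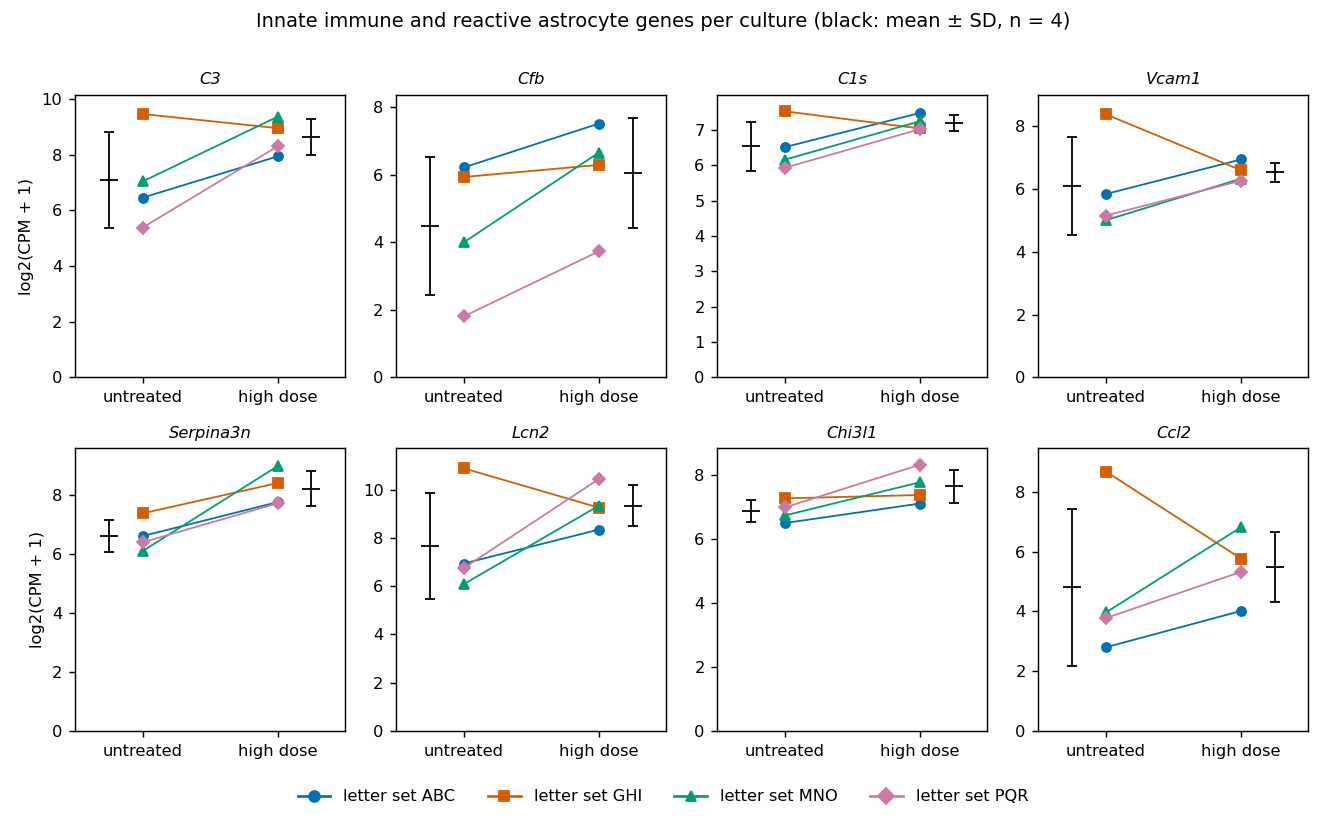
Levels of 8 innate immune and reactive astrocyte genes in log2(CPM + 1) (vertical axis) in untreated and high dose cultures, joined by letter set, with the mean ± SD (n = 4) in black. The lines of ABC, MNO and PQR climb for every gene shown, and those of C3, C1s, Vcam1, Lcn2 and Ccl2 drop in GHI, where the untreated culture had 330.5 CPM of Vcam1, 1894 of Lcn2 and 409 of Ccl2.

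Of the 26 reactive astrocyte genes tested, 16 lay higher in each of ABC, MNO and PQR, against 15.1% of all genes. A further 2 lay lower in each of these sets, against 14.5%. Serpina3n, a secreted serine protease inhibitor that marks reactive astrocytes, was the gene of this list whose 4 high dose values all lay above the 4 untreated values. Its level was 96.8, 166, 67.8 and 83.5 CPM in A, G, M and P and 217, 339.8, 506 and 211 CPM in C, I, O and R. Non-overlapping groups of this kind were found for 44 genes (0.359%) in the upward and 40 (0.326%) in the downward direction among all genes tested. The log2 fold change of Serpina3n was 1.87 ± 0.43 in the 12-culture fit, 1.91 ± 0.58 without G and 1.82 ± 0.44 in the letter-set fit, none of which passed the adjustment (adjusted p = 1, 1 and 0.208, edgeR), while the fit with 4 factors called it (1.66, adjusted p = 0.0365). The neighbouring family member LOC299282 was also apart in all 8 cultures, with 4.18 to 8.11 CPM untreated and 10.2 to 25.7 CPM at the high dose. Serpina3 genes are near-identical copies, so reads may have been split between them.

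Lcn2, the siderophore-binding lipocalin of the acute phase response, was at 122, 1894, 66.9 and 107 CPM in A, G, M and P and at 324, 611, 646 and 1390.3 CPM in C, I, O and R. G was the highest of the 8 cultures, and the other untreated cultures were the lowest. Without G, its log2 fold change was 2.84 ± 0.59 (adjusted p = 0.955, edgeR), while the fit with 4 factors called it (2.62, adjusted p = 0.0481). Chi3l1, a secreted chitinase-like protein of astrocytes, was at 89.9, 154, 106 and 126 CPM untreated and 138, 166, 219 and 321 CPM at the high dose. It was upregulated in the letter-set fit by 1.02 ± 0.12 on the log2 scale (adjusted p = 0.0341, edgeR) and was higher in all 4 letter sets.

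Steap4, a metalloreductase induced by inflammation, had 0.118, 0.754 and 0.333 CPM in A, M and P and 1.01, 4.31, 5.29 and 2.4 CPM at the high dose, but 69.1 CPM in G. It was called in the letter-set fit with a log2 fold change of 3.0 ± 0.43 (adjusted p = 0.0445, edgeR). This value rests on small counts, with 2, 11 and 4 reads in A, M and P, and without any factor it was -2.44. In the whole list, 15 of 26 reactive astrocyte genes lay higher at an unadjusted p under 0.05 in the letter-set fit, and none lay lower. The share of all genes that lay higher was 5.76%. In the 12-culture fit 8 of the list lay higher, against 0.921% of all genes. The median log2 fold change was 0.15, 0.35 and 0.39 in the 3 fits. Gfap, the intermediate filament of astrocytes, was not among them, with 1244, 4293, 1606 and 5772 CPM untreated, 1829, 1123, 836 and 4585 CPM at the high dose and a log2 fold change of -0.25 ± 0.21 in the letter-set fit (adjusted p = 0.781, edgeR).

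Most targets and feedback regulators of NF-kB lay higher in 3 of the 4 sets. Vcam1, an adhesion molecule for leukocytes, had 56.1 CPM in A, 330.5 in G, 31.1 in M and 34.5 in P, and 121 in C, 95.7 in I, 79.1 in O and 75.6 in R. Without G, the groups did not overlap, as was the case for 143 genes (1.17%) in the upward and 103 (0.839%) in the downward direction. Its log2 fold change was 0.82 ± 0.40 in the 12-culture fit, 1.15 ± 0.20 without G and 1.26 ± 0.11 in the letter-set fit (adjusted p = 1, 0.755 and 0.00491, edgeR). Among the 15 calls of that fit, only Ostn had a smaller p. Without any factor the log2 fold change of Vcam1 was -0.28. Nfkbia, which encodes the inhibitor that NF-kB induces to switch itself off, was at 31.8, 105, 26.4 and 23.1 CPM untreated and 46.1, 52.7, 59.8 and 41.1 CPM at the high dose. It was upregulated by 0.89 ± 0.13 on the log2 scale in the letter-set fit (adjusted p = 0.0445).

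A further 3 NF-kB targets had similar values without passing the adjustment. In the letter-set fit the log2 fold change was 1.01 ± 0.22 for Sod2, the mitochondrial superoxide dismutase, 1.32 ± 0.27 for Birc3, an inhibitor of apoptosis, and 1.08 ± 0.19 for Tnfaip2, with adjusted p of 0.154, 0.126 and 0.0843 (edgeR). All 3 genes were 1.09 to 1.5 higher in MNO and PQR on the log2(CPM + 1) scale, 0.26 to 0.49 higher in ABC and 1.18 to 1.60 lower in GHI. Of the 25 genes of the NF-kB list, 19 were higher in ABC, MNO and PQR, against 15.1% of all genes, and none was lower in all 3. None of the 25 was higher in all 4 sets. At an unadjusted p under 0.05, 13 lay higher in the letter-set fit, against 5.76% of all genes, and 4 in the 12-culture fit, against 0.921%.

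Chemokine ligands had the highest median log2 fold change of the gene lists plotted, at 1.22, 1.17 and 1.19 in the 3 fits. Ccl2, which recruits monocytes, was at 5.96, 409, 14.6 and 12.7 CPM in A, G, M and P and at 15.2, 53.5, 112 and 39.0 CPM in C, I, O and R. Its neighbour Ccl7 had 9.74, 371, 14.5 and 13.6 CPM untreated and 28.1, 47.0, 109 and 41.2 CPM at the high dose. Without G both genes were apart between the groups, and with G they were not. Their log2 fold changes in the letter-set fit were 2.13 ± 0.33 and 2.12 ± 0.33 (adjusted p = 0.0574 and 0.0617, edgeR), short of the threshold, and in the fit with 4 factors both were DEGs (adjusted p = 0.0200 and 0.00842). Without any factor, the direction of both turned, to -1.01 for Ccl2 and -0.86 for Ccl7.

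Il1b, the inflammasome cytokine, was near the floor in ABC and PQR, with 0.059, 3.83, 0.891 and 0 CPM in A, G, M and P and 0.237, 3.76, 4.71 and 0.703 CPM in C, I, O and R. Irg1, a mitochondrial enzyme of activated macrophages and microglia, was called in the letter-set fit at a log2 fold change of 4.12 ± 0.55 (adjusted p = 0.0420, edgeR) from few reads. It had 0, 85, 5 and 1 reads in A, G, M and P and 2, 95, 114 and 17 reads in C, I, O and R. In ABC both values were under the floor of 3 reads, so no difference was detectable there at this depth. Of the 21 chemokine ligands tested, 14 lay higher at an unadjusted p under 0.05 in the letter-set fit, against 5.76% of all genes, and none lay lower. For the 32 cytokines and their receptors, the counts were 11 and 0. In the 12-culture fit, 5 of the chemokine ligands and 3 of the cytokines and receptors lay higher at that p, against 0.921% of all genes, and 0 lay lower. The direction of these lists turned in the fit without any factor, in which G entered uncorrected, with medians of -0.38 for the chemokine ligands, -0.13 for the cytokines, -0.08 for the NF-kB list and -0.35 for the reactive astrocyte genes, whereas the complement genes had 0.31 and the interferon-stimulated genes 0.38.

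Interferon-stimulated genes differed by set. Of the 37 that entered the letter-set fit, 17 lay higher at an unadjusted p under 0.05, against 5.76% of all genes, none lay lower, and none was a DEG. Of the 36 tested in the 12-culture fit, 1 lay higher at that p, against 0.921% of all genes, and 0 lower, against 0.269%. Ifit3, an antiviral effector, went from 32.5 to 91.2 CPM in ABC, from 1.49 to 5.67 in GHI and from 1.37 to 7.87 in MNO, but from 0.665 to 0.496 CPM in PQR. The chemokine Cxcl10, also induced by interferon, went from 20.4 to 69.3 CPM, from 9.99 to 11.9 and from 3.15 to 17.8 in the same 3 sets and from 1.66 to 1.94 CPM in PQR. The untreated level itself was thus highest in ABC, and in PQR these 2 genes differed little. Of the 36 genes, 11 were higher in ABC, MNO and PQR, against 15.1% of all genes. The median log2 fold change of the list in the 12-culture fit was 0.51, and leaving out high dose culture C gave -0.13, whereas leaving out untreated culture A gave 1.11.

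Myeloid genes tracked the letter sets. Lyz2, the lysozyme of microglia and macrophages, was at 201, 766, 427 and 28.2 CPM in A, G, M and P and at 353, 854, 1083 and 43.2 CPM in C, I, O and R. It was higher at the high dose within each of the 4 sets, and it was a DEG in the letter-set fit with a log2 fold change of 0.99 ± 0.14 (adjusted p = 0.0445, edgeR), whereas the 12-culture fit gave 1.35 ± 0.96 (adjusted p = 1). Lyc2 is a close copy of Lyz2 with which it may share reads, and its log2 fold change was 1.03 ± 0.13 in the same fit (adjusted p = 0.0377). Of the 12 microglia markers tested, 9 also lay higher at an unadjusted p under 0.05 in the letter-set fit, against 5.76% of all genes, and none was a DEG. In the 12-culture fit, 0 of the 12 lay higher or lower at that p. Aif1, the microglial protein Iba1, was at 14.4, 44.6, 32.0 and 1.5 CPM untreated and 25.2, 58.3, 59.8 and 2.36 CPM at the high dose.

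Microglia transcripts moved in the same direction as the complement, chemokine and interferon-stimulated genes in ABC and MNO, and their part in these results was not tested. In PQR, where the microglia score was 2.27 untreated and 2.35 at the high dose, C3 was 2.92 higher and Lcn2 3.69 higher at the high dose on the log2(CPM + 1) scale, and Serpina3n was 1.33 higher. In the same pair of cultures, Lyz2 was 0.60 and Lyc2 0.69 higher on that scale, and Aif1 went from 1.5 to 2.36 CPM.

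Several neuropeptide genes lay lower at the high dose in ABC, MNO and PQR. Ostn, which encodes the secreted peptide osteocrin, had the smallest p of the letter-set fit and was downregulated with a log2 fold change of -2.92 ± 0.19 (adjusted p = 0.000864, edgeR). Its level was 26.3 CPM in M and 12.5 in P against 3.16 in O and 1.65 in R. Set ABC held 1 read in A and 0 in C, so nothing was detectable there, and G had 1 read against 33 in I. The call therefore rested on MNO and PQR and, through low dose culture H with 158 reads, on culture I. Without GHI the log2 fold change was -3.00 (adjusted p = 0.00254, edgeR). In the 12-culture fit it was -2.49 ± 1.71 (adjusted p = 1).

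Adcyap1 encodes PACAP, a peptide transmitter of glutamatergic neurons. It was at 14.5, 1.23, 72.7 and 99.5 CPM in A, G, M and P and at 7.64, 32.0, 37.3 and 41.5 CPM in C, I, O and R. Thus it was lower at the high dose in 3 sets and 3.89 higher in GHI on the log2(CPM + 1) scale. It was downregulated in the letter-set fit by a log2 fold change of -1.07 ± 0.13 (adjusted p = 0.0377, edgeR), while the 12-culture fit gave -0.48 ± 0.90 (adjusted p = 1). Its sign turned when untreated M (0.13) or untreated P was left out.

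Vgf, the precursor of several secreted peptides and a classical target of neuronal activity, was lower in all 4 sets. In GHI the untreated culture was G, which had few neuron transcripts and the highest Vgf level of the cultures compared. The level of Vgf was 162, 553, 254 and 394 CPM in A, G, M and P and 55, 145, 173 and 159.6 CPM in C, I, O and R. Only A and O kept the groups from separating. The log2 fold change was -1.11 ± 0.49 in the 12-culture fit and -1.22 ± 0.23 in the letter-set fit (adjusted p = 1 and 0.113, edgeR). Penk, the precursor of the opioid peptides enkephalin, was the other gene of the list that was lower in each set. It was at 21.5, 65.1, 16.6 and 15.6 CPM untreated and 12.5, 20.1, 14.4 and 10.2 CPM at the high dose. Culture G again had the highest level. The log2 fold change of Penk was -0.53 ± 0.17 in the letter-set fit (adjusted p = 0.377, edgeR).

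Scg2, a granin of dense-core vesicles, was at 74.5, 99.1, 211 and 729 CPM untreated and at 49.1, 109, 112 and 322 CPM at the high dose. Its log2 fold change in the letter-set fit was -0.93 ± 0.14 (adjusted p = 0.0556, edgeR), just short of the threshold. Bdnf, the neurotrophin whose transcription follows calcium entry, was at 2.24, 4.48, 24.0 and 55.4 CPM untreated and 1.36, 8.22, 12.1 and 15.5 CPM at the high dose, with a log2 fold change of -1.22 ± 0.21 (adjusted p = 0.0882, edgeR). It was a DEG in the fit with 4 factors (-1.07, adjusted p = 0.0162). Nptx2, a pentraxin that clusters AMPA receptors, gave -0.78 ± 0.29 (adjusted p = 0.426) in the letter-set fit.

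Of the 36 neuropeptide genes tested in the 12-culture fit, 14 were lower in ABC, MNO and PQR, against 14.5% of all genes, and none was higher in all 3. Of the 37 in the letter-set fit, 13 lay lower at an unadjusted p under 0.05, against 3.67% of all genes, and 0 lay higher. In the 12-culture fit, 1 lay lower at that p, against 0.269% of all genes. The median log2 fold change of this list was 0.02 in the 12-culture fit, -0.11 without G and -0.22 in the letter-set fit, so its sign depended on the fit. Of 26 late activity-regulated genes, 10 were lower in the same 3 sets, against 14.5% of all genes, and 1, Inhba, was higher, against 15.1%. In the letter-set fit, 8 lay lower and 1 higher at an unadjusted p under 0.05, against 3.67% and 5.76% of all genes. In the 12-culture fit 1 lay lower and 0 higher. The medians were -0.12, -0.14 and -0.15. Ostn and Adcyap1 belong to both this list and the neuropeptide list, so the 2 lists are not separate evidence. The plot of peptide genes shows these values by culture.

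**Figure D4:**
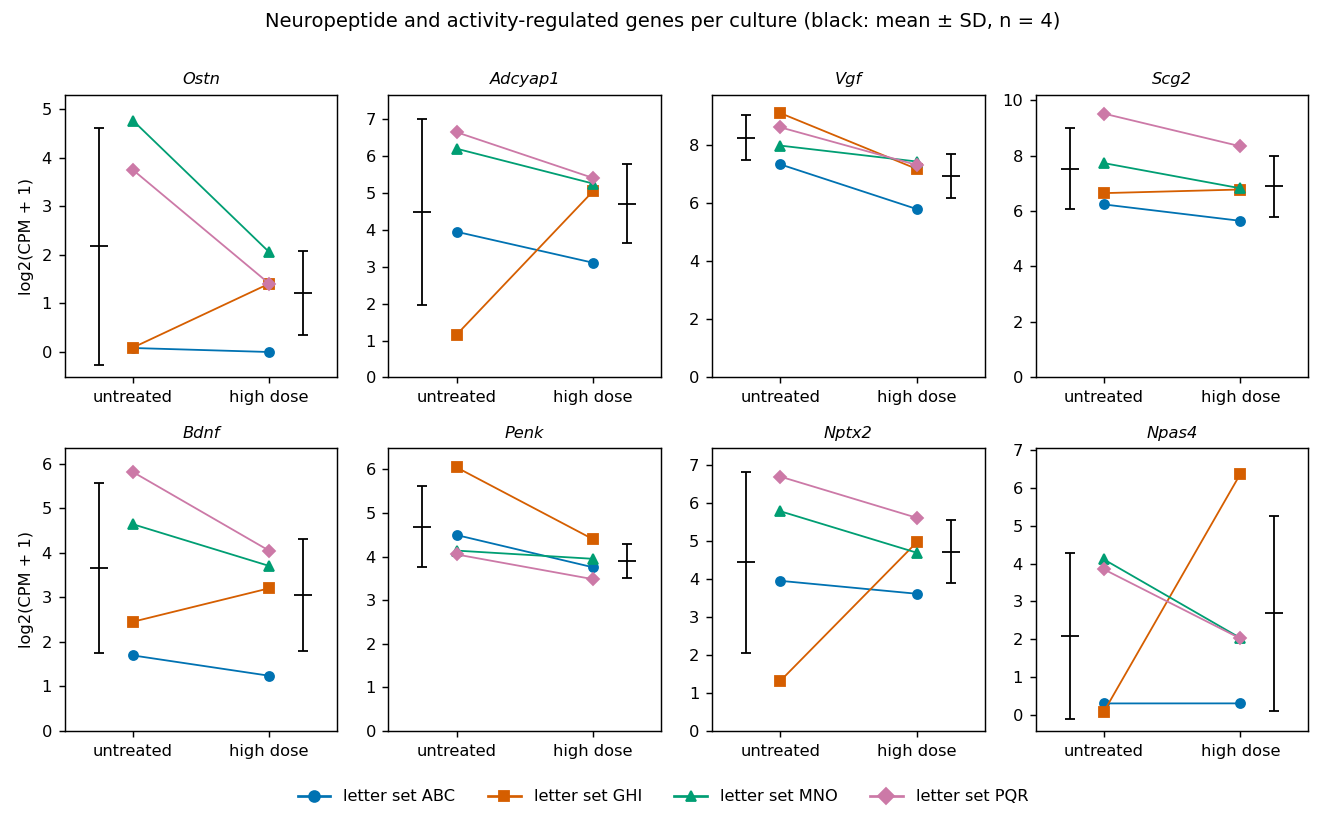
Levels of 8 neuropeptide and activity-regulated genes in log2(CPM + 1) (vertical axis) in untreated and high dose cultures, joined by letter set, with the mean ± SD (n = 4) in black. In MNO and PQR all 8 genes are lower at the high dose, and culture I has the highest Npas4 level of the 8 cultures, at 81.4 CPM.

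Immediate early genes gave no common direction. Npas4, an activity-induced transcription factor of neurons, was at 0.236, 0.0649, 16.3 and 13.4 CPM in A, G, M and P and at 0.237, 81.4, 3.09 and 3.06 CPM in C, I, O and R. Arc, which regulates AMPA receptor traffic, was at 149.9 CPM in culture I against at most 37.5 CPM in the 7 other cultures. Both genes were higher at the high dose in the 12-culture fit (log2 fold change 1.63 ± 1.77 and 1.51 ± 1.43) and lower in the letter-set fit (-1.52 ± 0.51 and -0.55 ± 0.28), and none of these values passed the adjustment (adjusted p = 1, 1, 0.392 and 0.587, edgeR). Both were close to the floor in ABC. For the 27 genes of this list, 3 lay higher and 5 lower at an unadjusted p under 0.05 in the letter-set fit. The shares of all genes were 5.76% and 3.67%. In the 12-culture fit 1 lay higher and 0 lower, against 0.921% and 0.269% of all genes.

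The opioid receptors themselves were sparse. Oprm1, which encodes the mu receptor that fentanyl binds, had 2, 0, 5 and 7 reads in A, G, M and P and 1, 3, 4 and 5 reads in C, I, O and R, too few to be tested. Oprk1, the kappa receptor, had 0 to 3 reads in these cultures. Oprd1, the delta receptor, was at 0 to 1.58 CPM untreated and 0.786 to 1.30 CPM at the high dose. Oprl1, the nociceptin receptor, was the best detected of the receptors named here. It had 3.70 CPM in G, 17.8 to 22.6 CPM in the other untreated and 20.1 to 29.9 CPM in the high dose cultures. Its log2 fold change was 0.22 ± 0.15 without G (adjusted p = 1, edgeR). Over the 43 genes of opioid receptor signalling that were tested, the median log2 fold change was 0.11 in the 12-culture fit, 0.02 without G and 0.01 in the letter-set fit.

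Genes of synaptic transmission had higher medians in the fit that holds culture G than without it. The median log2 fold change of 31 synaptic vesicle genes was 0.38 in the 12-culture fit and 0.03 without G, that of 12 GABA-A receptor subunits was 0.42 and 0.06, that of 41 potassium channels 0.25 and 0.05, and that of 27 voltage-gated calcium and sodium channels 0.32 and 0.04. In the letter-set fit these medians lay between -0.03 and 0.07. Kcnc4, a voltage-gated potassium channel, was an exception by its order, since its 4 high dose values of 56.6, 84.2, 67.3 and 65.5 CPM lay above the untreated 56.2, 4.73, 41.8 and 42.8 CPM. C and A differed by less than 1 CPM, and the log2 fold change was 0.46 ± 0.12 in the letter-set fit (adjusted p = 0.253, edgeR). The fit with 4 factors called Kcnc4 (0.65, adjusted p = 0.0481).

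Ntng1, an axonal adhesion protein, had 12, 15.2, 12.6 and 10.9 CPM untreated and 15.2, 21.6, 18.2 and 18.7 CPM at the high dose, with a log2 fold change near 0.6 in each of the 3 fits (0.62, 0.63 and 0.59). Its 8 values did not overlap, although G and C differed only in later digits, and none of these 3 fits called it.

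Cholesterol synthesis genes lay slightly lower. Of 23 enzymes and regulators tested, 10 were lower in all 4 letter sets, against 5.22% of all genes, and none was higher in all 4. These 10 were Hmgcs1, Idi1, Fdft1, Sqle, Lss, Msmo1, Nsdhl, Sc5d, Tm7sf2 and Hsd17b7. The sizes were small. Sc5d, a desaturase near the end of the pathway, had 98.1, 92.0, 85.5 and 96.3 CPM untreated and 80.1, 80.8, 73.9 and 87.8 CPM at the high dose, a log2 fold change of -0.23 ± 0.10 in the 12-culture fit (adjusted p = 1, edgeR). Msmo1, a methylsterol oxidase, gave -0.34 ± 0.17, -0.20 ± 0.11 and -0.22 ± 0.07 in the 3 fits, and no gene of the list was a DEG in any of them. The medians of the list were -0.19, -0.18 and -0.15.

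Of 28 genes of hypoxia and glycolysis, 4 lay lower and 0 higher at an unadjusted p under 0.05 in the letter-set fit, against 3.67% and 5.76% of all genes, and 0 did so in either direction in the 12-culture fit. Vegfa, the vascular growth factor, was at 498, 66.5, 197 and 87.3 CPM in A, G, M and P and at 374, 141, 128 and 64.6 CPM in C, I, O and R, with a log2 fold change of -0.51 ± 0.08 in the letter-set fit (adjusted p = 0.0832, edgeR) and -0.56 with 4 factors (adjusted p = 0.0396). Apln, the peptide apelin, gave -0.99 ± 0.21 (adjusted p = 0.149) in the letter-set fit. Hspa5, the main chaperone of the endoplasmic reticulum, was at 1246, 2721, 1488 and 1078 CPM untreated and 1299, 1959, 2313 and 1573 CPM at the high dose, with 0.43 ± 0.11 (adjusted p = 0.269) in the same fit. Of 28 genes of the unfolded protein and integrated stress response, 9 lay higher and 3 lower at an unadjusted p under 0.05 in the letter-set fit. The shares of all genes were 5.76% and 3.67%. In the 12-culture fit 2 lay higher and 0 lower, against 0.921% and 0.269% of all genes.

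Extracellular matrix genes had no common sign. The median log2 fold change of 24 collagens was -0.28 in the 12-culture fit, -0.15 without G and 0.02 in the letter-set fit, and G, with its high fibroblast score, had the highest collagen level of the 8 cultures, at a mean of 5.36 in log2(CPM + 1) against 2.71 to 3.84 in the others. The plot of list medians sets all gene lists side by side in the 3 fits.

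**Figure D5:**
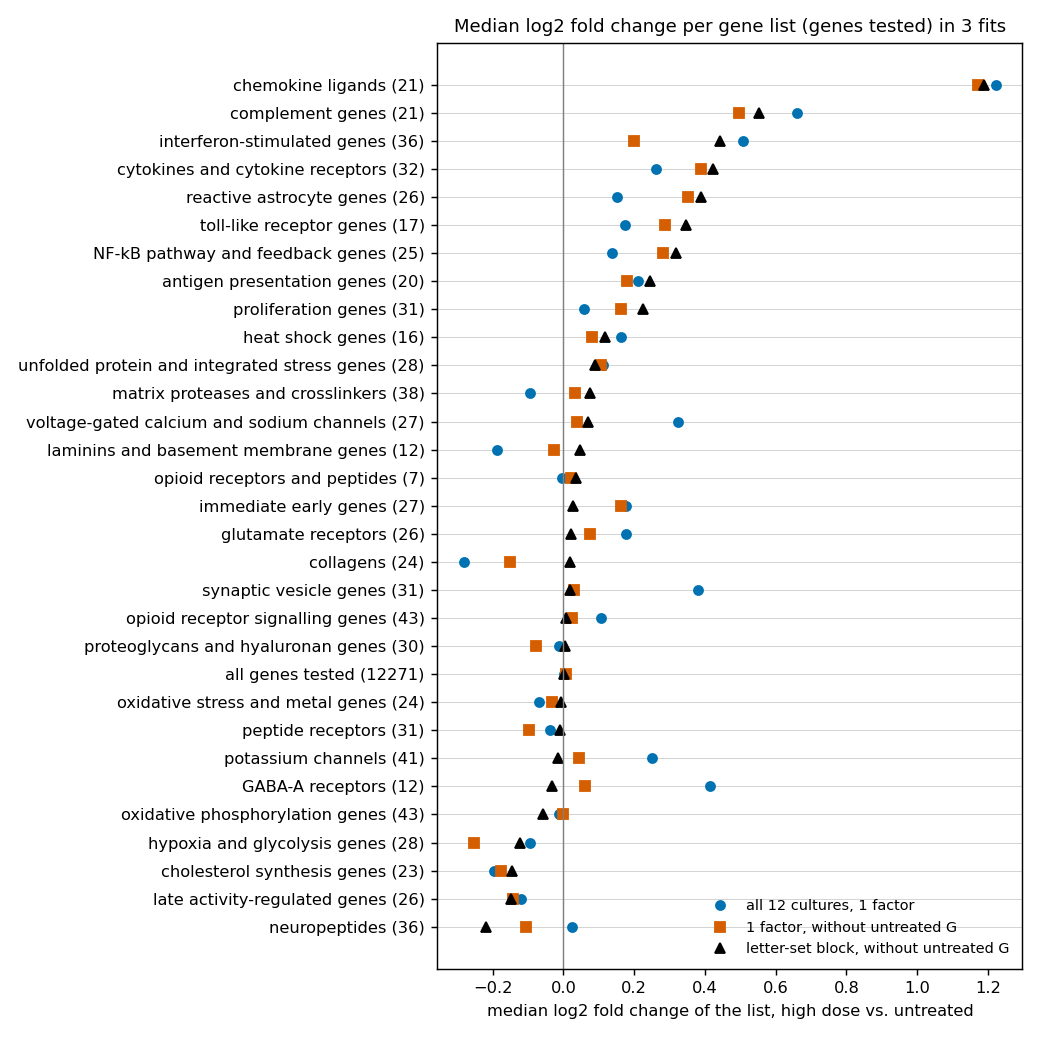
Median log2 fold change of each gene list in high dose vs. untreated cultures (horizontal axis), with the number of genes tested in the 12-culture fit in brackets, in that fit (circles), without untreated culture G (squares) and in the letter-set fit without G (triangles). Chemokine ligands lie highest, at 1.22, 1.17 and 1.19, and the lists of synaptic and channel genes move from 0.18 to 0.42 towards 0 once G is left out.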

How the data were processed

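Poly(A) RNA of 12 cultures was sequenced. The authors mapped reads with STAR against the rat build rn6, and featureCounts assigned them to genes. What they deposited are raw counts in whole numbers, to which no normalization had been applied. Whether strand was used in counting is not given in the sources used here. No genome sequence was at hand, so no positions are given.

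Cultures were assigned to doses by their labels. The comparison, its members and all gene lists were chosen with earlier results of these data known. Counts were scaled by TMM and filtered by filterByExpr in edgeR 4.0.16 (R 4.3.3). The study's methods name RUVseq and edgeR with thresholds of an adjusted p of 0.05 and a log2 fold change of 0.5, but neither the procedure nor the number of factors. Hence 1 factor was estimated by the RUVs formula from the replicates of each dose, with all genes kept as controls, and entered with the 3 doses in the quasi-likelihood test with Benjamini-Hochberg adjustment over all genes. The first component of the variation within doses held 41.0% of it. The factor was 0.93 in G and between -0.22 and 0.15 in the other cultures. SEs were derived from the quasi-likelihood statistic. The letter-set fit holds doses and letter sets for 11 cultures, in which culture I enters through its low dose neighbour H. Replicate numbers are letters that no group shares, and the pairing by letter sets is not stated in the labels. Marker scores were compared by exact two-sided permutation tests. Gene lists were described by counts and medians, without a set test.

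The named genes are the 10 with the smallest p in each direction of the 12-culture fit, the calls of the letter-set fit, up to 8 in each direction that did not overlap and agreed in sign over the sets, leading and role-bearing members of each list, the genes the study's text names and the opioid genes. Some of them are not reported here. Alternatives were other factor numbers, tests (likelihood ratio, DESeq2 1.42.0), scalings, filters and sets of cultures. The procedure was run on simulated counts with known changes. These counts held no differences between letter sets and no culture like G, so the run cannot show how the fits handle either.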

Additional observations from a re-analysis of the deposited data

Results flagged for a closer look

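In groups of 4 cultures, 8 of 74 groups tested held 1 culture far from the other 3 by Dixon's criterion. Untreated culture G was that culture in 6 of the 8. The groups share the same cultures, and genes among them were picked from these data, in part by a fit without G. The number flagged can therefore not be set against a chance rate. Values are log2(CPM + 1). In G, the neuron marker score was 4.44 against 7.41 to 7.83 in the other untreated cultures, and the excitatory neuron marker score was 1.77 against 5.14 to 5.28. G was above the other untreated cultures for Irg1 (2.7 against 0 to 0.43), Steap4 (6.13 against 0.16 to 0.81), Ccl7 (8.54 against 3.43 to 3.95) and Slpi (3.34 against 0 to 0.10). High dose culture C was below the other high dose cultures for Adcyap1 (3.11 against 5.05 to 5.41) and Vgf (5.81 against 7.19 to 7.45).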

How the results depend on the processing

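The number of DEGs was 0 in the 12-culture fit, and it was also 0 without any factor, with the replicate block by letter sets on all 12 cultures, with only the 8 cultures compared, with DESeq2 size factors or upper quartile scaling, under both other filters, and with any 1 culture left out (lowest and highest 0). The number of genes at an unadjusted p under 0.05 lay between 71 without high dose O and 500 without untreated A. The replicate block by letter sets without G gave 15 (145 with the likelihood ratio test), 2 without the cultures G, H and I, and, in alternatives chosen after seeing the data, 9 without ABC, 24 without MNO and 0 without PQR. It was 1 with 2 or with 3 factors, 39 with 4 factors and 60 with 4 factors and without G (also added), 2 with the likelihood ratio test and 3 with DESeq2. Without any factor, the log2 fold change turned to -0.28 for Vcam1, -2.44 for Steap4, -0.86 for Ccl7, -0.81 for Tlr2, -1.01 for Ccl2 and -0.31 for Slpi. Leaving out 1 culture in turn gave -0.88 to 0.13 for Adcyap1, -0.94 to 0.60 for Vegfa, -1.67 to 0.30 for Scg2, -1.04 to 0.077 for Cckbr, -0.85 to 0.14 for Crhbp and -0.72 to 0.24 for P4ha2. The marker score difference ranged in the same way from -0.014 to 0.38 for inhibitory neurons, -0.45 to 0.38 for OPCs, -0.26 to 0.82 for oligodendrocytes, -0.49 to 0.93 for microglia and -0.22 to 0.26 for endothelial cells. Without the cultures G, H and I it was -0.079 for inhibitory neurons, -0.17 for oligodendrocytes, 0.21 for endothelial and 0.24 for fibroblast and mural cells, and by the median of markers 0.026 for endothelial cells. The cause of these turns was not tested. Of 28 genes followed through up to 31 alternatives each, 16 kept their direction in all that could be computed. Depth limits Ostn, Irg1, Steap4, Slpi and the opioid receptors Oprm1 and Oprk1, which had under 20 reads in several cultures.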

Other observations

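Proliferation genes were not described above. Of 31 tested, 14 were higher in ABC, MNO and PQR, against 15.1% of all genes, and none was lower in all 3. At an unadjusted p under 0.05, 6 lay higher in the letter-set fit, against 5.76% of all genes, and 0 in the 12-culture fit, with no DEG in either. Top2a, a topoisomerase of dividing cells, was at 0.944, 23.2, 12.1 and 12.1 CPM in A, G, M and P and at 4.15, 9.63, 14.5 and 17.0 CPM in C, I, O and R. Its log2 fold change in that fit was 0.78 ± 0.28 (adjusted p = 0.420, edgeR), and the largest step was that in ABC, from a low untreated level. Genes of oxidative phosphorylation lay close to 0, with a median log2 fold change of -0.06 over 43 genes in the letter-set fit.

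Among the genes without overlap in all 8 cultures and of equal sign in the 4 sets, the metallothionein Mt1a was at 254, 267, 194 and 168 CPM untreated and 288, 284, 317 and 302 CPM at the high dose. Limd2, an adaptor protein, was at 23.2 to 35.4 CPM untreated and 42.2 to 57.0 CPM at the high dose. Neu3, a ganglioside sialidase, was lower, with 3.22 to 4.41 CPM untreated and 2.46 to 3.09 CPM at the high dose. None of these 3 genes passed the adjustment in the 12-culture fit (adjusted p = 1, edgeR). The fit with 4 factors called Mt1a (0.545, adjusted p = 0.0471) and, just past the fold change threshold, Limd2 (0.5003, adjusted p = 0.0230). It did not call Neu3.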
